A study of Rattus norvegicus with 12 samples.

Results

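The neuronal pentraxins Nptxr, Nptx1 and Nptx2, with the synaptic genes Olfm1 and Slc17a6 and the neuronal deubiquitinase gene Uchl1, were followed through rat Schwann cells grown with macrophages. These 6 genes of the 30957 in the table were picked by gene name, with their levels in all 4 groups already known. Differences between groups are therefore given for them as a description, with no test. In the same way, how many of them passed a filter says nothing about them as a set.

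Messenger RNA was sequenced in 12 libraries, 3 per group. In MiaTAM co-culture the Schwann cells were grown with tumour-associated macrophages (TAMs) induced with the supernatant of MIA PaCa-2 pancreatic cancer cells, and in BxTAM co-culture with TAMs induced with that of BxPC-3 pancreatic cancer cells. In MDM co-culture they were grown with monocyte-derived macrophages (MDMs; these samples are titled PBMC and carry the treatment label untreated), and the last group was Schwann cells alone. All groups are labelled as rat Schwann cells, which the titles of the cells alone name Rsc96, read here as the immortalised rat Schwann line RSC96. No source used here gives the species of the macrophages, the length of co-culture, whether macrophages were removed before RNA extraction. Nor does any say that the replicates are independent cultures. The p-values below thus judge differences between groups against the spread between these libraries, which may be technical.

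Neuronal pentraxins are proteins of excitatory synapses. Nptx1 and Nptx2 are secreted, while Nptxr is anchored in the membrane, and complexes of the 3 gather AMPA-type glutamate receptors at the synapse. Olfm1 encodes a secreted olfactomedin glycoprotein that is found with AMPA receptors and acts on axon growth. Slc17a6 encodes VGLUT2, which loads glutamate into synaptic vesicles. Uchl1 encodes a ubiquitin hydrolase that is very abundant in neurons.

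Total counts ran from 16555215 to 21506669 per library, and 12360 genes had enough counts for a test. Levels are given as CPM, the count scaled by library size and TMM factor, with SD over 3 libraries. FPKM, the length-scaled value of the deposited table, is used only where genes are compared with each other. Of 14 Schwann cell markers, 5 or 6 were under 1 CPM in each group, and among these Sox10, a defining one, had 1 count in all 12 libraries together and S100b 43. In cells alone Ncam1 stood at 107 CPM, Pmp22 at 93.3 CPM, Cdh2 at 54.8 CPM, Dhh at 7.73 CPM, Erbb3 at 7.14 CPM and Egr2 at 5.88 CPM. The Schwann list summed to 314 to 322 CPM in MiaTAM, 304 to 312 CPM in BxTAM and 346 to 373 CPM in MDM co-culture, against 275 to 287 CPM in cells alone. Of 22 genes on the neuron list, which also holds the repressor Rest, 15 were under 1 CPM in every group and 6 had no count at all: Elavl3, Elavl4, Nefl, Stmn2, Chga and Scg3. The neuron list summed to 612 to 636 CPM in MiaTAM, 643 to 647 CPM in BxTAM and 742 to 759 CPM in MDM co-culture, against 433 to 437 CPM in cells alone, and Eno2 and Map2 made up most of it. Of 16 macrophage markers, 11 or 12 were under 1 CPM in each group, and Tyrobp had no count, while Ptprc had 3 counts in all 12 libraries and Itgax was the most abundant. Summed over the macrophage list, levels were 63.9 to 66.6 CPM in MiaTAM, 58.4 to 59.6 CPM in BxTAM and 60.6 to 67.0 CPM in MDM co-culture, against 27.0 to 29.9 CPM in cells alone. Itgax alone averaged 41.4 CPM in MiaTAM, 37.6 CPM in BxTAM and 46.2 CPM in MDM co-culture, against 17.2 CPM in cells alone. It thus made up most of the macrophage list in every group. The part of transcripts on the neuron and macrophage lists in the differences from cells alone was not tested.

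Of the 6 members, 4 had enough counts to enter the fit, Nptxr, Olfm1, Slc17a6 and Uchl1. Their fitted changes are given with their standard errors and no test.

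Nptxr, the membrane-bound pentraxin, was the member with the widest spread between groups at a high level. Its 3 libraries stood at 190.2, 215 and 203 CPM in MiaTAM co-culture and at 170.5, 178 and 163 CPM in BxTAM co-culture. They reached 579, 599 and 587 CPM in MDM co-culture, against 94.6, 91.4 and 88.9 CPM in cells alone. MDM libraries were thus highest, then MiaTAM libraries, then BxTAM libraries, with cells alone lowest, and no 2 neighbouring groups in that order overlapped. In bulk RNA, a change in the share of cells that carry a transcript and a change in RNA per cell cannot be told apart.

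The mean of Nptxr was 588 ± 10.5 CPM in MDM co-culture and 91.6 ± 2.89 CPM in cells alone (SD, n = 3 each), a 6.42-fold difference and a log2 change of 2.68 ± 0.05 (SE of the fit). MiaTAM co-culture averaged 203 ± 12.3 CPM, 2.21-fold above cells alone. BxTAM co-culture averaged 170.3 ± 7.51 CPM, 1.86-fold above cells alone. Set against MDM co-culture, the log2 changes were -1.54 ± 0.04 for MiaTAM and -1.79 ± 0.05 for BxTAM. Both TAM groups were thus between MDM co-culture and cells alone in every library. The step between MiaTAM and BxTAM was small, at 0.25 ± 0.05 on the log2 scale. Replicate error was low in MDM co-culture, where the coefficient of variation was 1.78% and counting alone would give 0.951%.

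**Figure D1:**
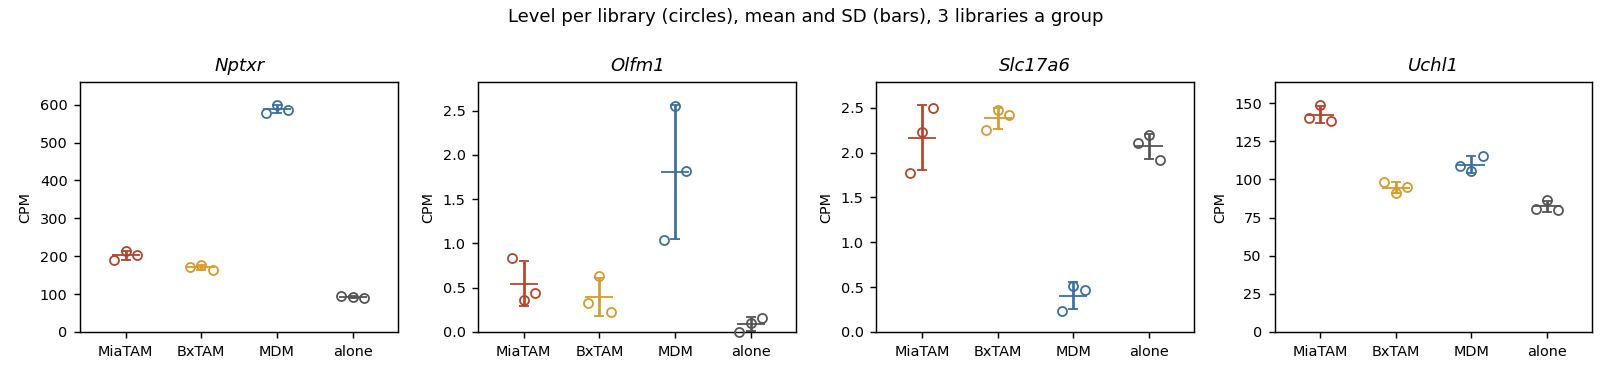
Level in CPM (vertical axes, linear from 0) of Nptxr, Olfm1, Slc17a6 and Uchl1 in MiaTAM, BxTAM and MDM co-culture and in Schwann cells alone. Circles are the 3 libraries of a group and bars their mean and SD. Nptxr and Olfm1 are highest in MDM co-culture, Slc17a6 is lowest there, and Uchl1 is highest in MiaTAM co-culture.

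The secreted partners of Nptxr were not detected beside it. Nptx2, which neurons induce on activity, had no count in any of the 12 libraries. Over the 220858547 counted reads of all libraries, 3 counts correspond to 0.0136 CPM, the level that a count of 0 still allows. Nptx1 had 1 count, in MDM library 2, and none in the other 11 libraries. At this depth no difference in either gene between groups could be seen. Nptxr, by contrast, had 5125 counts even in cells alone, where it was lowest.

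Nptxr lies on chromosome 7, 121011680 to 121029754 of Rnor_6.0, and no annotated gene of the table overlaps it or any other member. Within 50000 bases on either side the table holds 3 genes, named here after their values were seen. Dnal4, a dynein light chain gene 11408 bases away, rose by 0.95 in MDM co-culture against cells alone (edgeR, adjusted p = 1.6e-11) and changed by -0.66 in BxTAM against MDM co-culture (adjusted p = 2.0e-08). Cbx6, a Polycomb protein gene 20548 bases away, changed by -0.04 in MDM co-culture against cells alone (edgeR, adjusted p = 0.523). Sun2, a gene of the nuclear envelope, changed by 0.06 in that comparison (edgeR, adjusted p = 0.307) and by -0.57 in BxTAM against MDM co-culture (adjusted p = 4.3e-08).

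Olfm1 took the same order of groups as Nptxr, at a far lower level. Its counts were 16, 6 and 8 in MiaTAM, 6, 11 and 4 in BxTAM and 18, 45 and 39 in MDM co-culture, against 0, 2 and 3 in cells alone. Every MDM library was above every library of the other groups, and cells alone were below all others, while MiaTAM and BxTAM overlapped. Means were 0.543 ± 0.255 CPM in MiaTAM, 0.391 ± 0.215 CPM in BxTAM and 1.80 ± 0.759 CPM in MDM co-culture, against 0.0872 ± 0.0809 CPM in cells alone. MDM libraries alone lifted the gene over the count filter in all 3 replicates of a group, so it entered the fit through the group where it was highest.

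Summed counts of Olfm1 were 102 in MDM co-culture and 5 in cells alone, a ratio of 20.3 per scaled read with a 95% counting interval from 8.40 to 63.7. The ratio to cells alone was 6.20 (2.38 to 20.5) for MiaTAM and 4.34 (1.59 to 14.7) for BxTAM co-culture. Against MDM co-culture it was 0.306 (0.196 to 0.463) for MiaTAM and 0.214 (0.127 to 0.345) for BxTAM. Between MiaTAM and BxTAM co-culture, whose libraries overlapped, the ratio was 1.43 (0.791 to 2.63). These intervals cover counting error alone and are no test, since Olfm1 was picked with its levels known. The spread between MDM libraries went beyond counting error, with a coefficient of variation of 42.1% where counting would give 17.1%. The fitted log2 change of MDM co-culture against cells alone was 4.24 ± 0.56, and it was 4.91 without library 3 of the cells alone, so its size rests on very few counts.

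Slc17a6, the vesicular glutamate transporter, ran the other way. Its counts were 34, 37 and 46 in MiaTAM and 42, 43 and 44 in BxTAM co-culture, 4, 9 and 10 in MDM co-culture, and 37, 43 and 36 in cells alone. MDM libraries were below all others by a wide gap. MiaTAM libraries overlapped both BxTAM libraries and cells alone, while the BxTAM libraries lay just above cells alone. Means were 2.17 ± 0.364 CPM in MiaTAM, 2.38 ± 0.114 CPM in BxTAM and 0.403 ± 0.151 CPM in MDM co-culture, against 2.07 ± 0.141 CPM in cells alone. The log2 change was -2.33 ± 0.27 in MDM co-culture against cells alone, 2.39 ± 0.27 in MiaTAM against MDM and 2.53 ± 0.26 in BxTAM against MDM co-culture. For MiaTAM and BxTAM against cells alone it was 0.06 ± 0.19 and 0.20 ± 0.19, and for MiaTAM against BxTAM -0.14 ± 0.19. All 3 of these are within about 1 SE of 0. Summed counts gave a ratio of 0.197 for MDM co-culture against cells alone, with a 95% counting interval from 0.120 to 0.310. This interval likewise covers counting error alone and is no test. Slc17a6 passed the count filter through the other groups and not through MDM co-culture.

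The other vesicular glutamate transporters showed no such drop in their few counts. Slc17a7, which encodes VGLUT1, had 21 counts in MiaTAM, 9 in BxTAM and 19 in MDM co-culture, against 4 in cells alone. Slc17a8, which encodes VGLUT3, had 2 counts, both in MDM library 2. Neither had enough counts for a test. Slc17a6 made up 52.3% of the counts of the 3 transporters in MDM co-culture, 23 of 44, with an exact 95% binomial interval from 36.7 to 67.5%. It made up 84.8% (77.7 to 90.3%) in MiaTAM, 93.5% (88.0 to 97.0%) in BxTAM co-culture and 96.7% (91.7 to 99.1%) in cells alone. These intervals are over summed reads of 3 libraries and cover counting error only, not the spread between libraries, and they are no test. Per length, MDM co-culture held 0.0964 ± 0.0356 FPKM of Slc17a6 and 0.09995 ± 0.0301 FPKM of Slc17a7, whereas cells alone held 0.505 ± 0.0362 and 0.0221 ± 0.0192 FPKM.

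**Figure D2:**
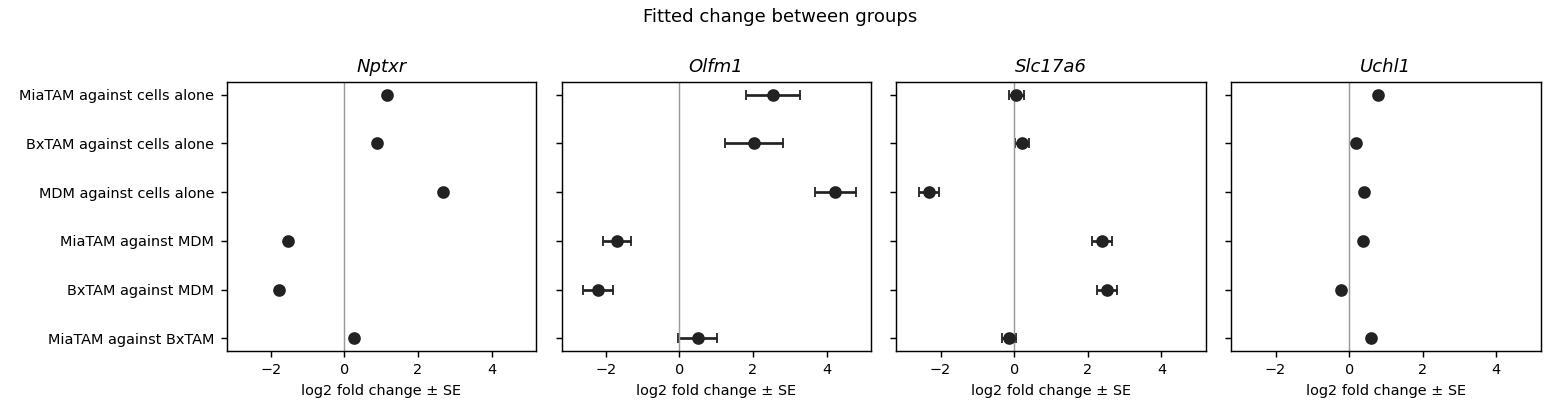
Fitted log2 fold change of each member with 1 SE (horizontal axes) for the 6 comparisons of groups, 1 panel per gene, with the group named first on top of the fold change. Nptxr and Olfm1 are right of 0 against cells alone and left of 0 for both TAM groups against MDM co-culture, and Slc17a6 takes the opposite side wherever MDM co-culture enters.

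Uchl1, the neuronal ubiquitin hydrolase, was abundant in all groups and highest in MiaTAM co-culture. Its libraries stood at 141, 149 and 138 CPM in MiaTAM, 98.1, 91.0 and 95 CPM in BxTAM and 109, 105 and 116 CPM in MDM co-culture, against 80.8, 86.6 and 80.1 CPM in cells alone. The order was MiaTAM, MDM, BxTAM and cells alone, and no 2 neighbours in it overlapped. Means were 143 ± 5.54 CPM in MiaTAM, 94.7 ± 3.56 CPM in BxTAM and 109.8 ± 5.28 CPM in MDM co-culture, against 82.5 ± 3.53 CPM in cells alone. Its widest difference between groups was smaller than that of the other 3 detected members. Log2 changes against cells alone were 0.79 ± 0.05 for MiaTAM, 0.20 ± 0.05 for BxTAM and 0.41 ± 0.05 for MDM co-culture. MiaTAM stood above BxTAM co-culture by 0.59 ± 0.05. In that comparison the fitted change of Uchl1 was larger than that of Nptxr (0.25 ± 0.05) or Slc17a6 (-0.14 ± 0.19). The change of Olfm1 (0.50 ± 0.53) had too large an SE to be ranked against it. Against MDM co-culture the TAM groups parted, at 0.38 ± 0.05 for MiaTAM and -0.21 ± 0.05 for BxTAM.

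Per length, Uchl1 and Nptxr changed places between groups. In MDM co-culture Nptxr had 119, 121 and 121 FPKM and Uchl1 102, 96.9 and 108 FPKM, so Nptxr was the higher of the 2 in each library. In the other groups Uchl1 was the higher, with means of 134 ± 5.78 against 41.7 ± 2.48 FPKM in MiaTAM, 89.0 ± 3.30 against 35.1 ± 1.49 FPKM in BxTAM and 78.2 ± 3.69 against 19.0 ± 0.604 FPKM in cells alone. Ranked by FPKM, Nptxr was above 84.0% of the tested genes in MiaTAM, 80.6% in BxTAM and 95.2% in MDM co-culture, against 63.7% in cells alone. Uchl1 was above 91.2 to 95.8% in every group. Olfm1 and Slc17a6 were above no more than 7.22% in any group.

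Upstream sequence is shown for Olfm1 and Slc17a6, whose levels ran in opposite directions between MDM co-culture and the other groups, and for Uchl1, the most evenly expressed member. Each line gives the 250 bases before the start that RefSeq lists on build GRCr8, 5′ to 3′ on the strand of the gene. These are Olfm1 on chr3:31931086-31931335 (plus strand), Slc17a6 on chr1:110348197-110348446 (plus strand) and Uchl1 on chr14:41849418-41849667 (minus strand). Capitals mark matches on either strand to a fixed set of motifs, named after the lines.
Olfm1: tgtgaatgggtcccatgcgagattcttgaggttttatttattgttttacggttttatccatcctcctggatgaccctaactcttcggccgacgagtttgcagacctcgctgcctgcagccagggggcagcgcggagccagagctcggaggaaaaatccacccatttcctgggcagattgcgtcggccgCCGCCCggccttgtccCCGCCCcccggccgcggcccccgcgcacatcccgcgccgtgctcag
Slc17a6: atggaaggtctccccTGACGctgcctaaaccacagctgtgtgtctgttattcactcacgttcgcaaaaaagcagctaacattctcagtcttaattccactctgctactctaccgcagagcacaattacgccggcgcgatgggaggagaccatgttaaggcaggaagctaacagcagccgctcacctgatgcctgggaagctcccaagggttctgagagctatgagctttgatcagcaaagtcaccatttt
Uchl1: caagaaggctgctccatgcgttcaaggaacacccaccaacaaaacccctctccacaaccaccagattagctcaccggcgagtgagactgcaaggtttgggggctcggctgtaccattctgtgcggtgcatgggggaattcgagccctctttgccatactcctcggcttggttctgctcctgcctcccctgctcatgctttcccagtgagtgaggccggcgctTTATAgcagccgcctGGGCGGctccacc

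The GC box was searched as GGGCGG, the CCAAT box as CCAAT and the TATA box as TATAA. The core of the cAMP response element was searched as TGACG, the E-box as CACGTG and the AP-1 site as TGANTCA. The EGR site was searched as GCGNGGGCG. The REST element was searched by its half-sites, GGACAG and TTCAGCACC. GGGCGG and GCGNGGGCG can overlap, and the matches shown do not. Olfm1 held GGGCGG on the other strand, at 62 and 46 bases before the start, and its window had 62.4% GC and 23 CpG pairs. Slc17a6 held TGACG at 235 bases before the start, with 50.8% GC and 9 CpG pairs. Uchl1 held TATAA on the other strand at 28 bases and GGGCGG at 13 bases before the start, with 59.6% GC and 11 CpG pairs. Of 33465 windows of the same length, 30.5% held GGGCGG, 24.0% TATAA and 18.2% TGACG, and the median window had 51.2% GC and 5 CpG pairs. A match is a string of letters and not a measured binding site, and the counts per gene do not resolve which start was used.

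Among 10596 genes with a usable symbol and at least 1 CPM, the log2 levels most like those of Nptxr over the 12 libraries were those of Calr (Pearson r = 0.991) and Hdac5 (r = 0.990). Calr encodes calreticulin, a calcium-binding chaperone of the endoplasmic reticulum, and averaged 1922 ± 50.3 CPM in MDM co-culture and 1092 ± 23.9 CPM in cells alone. For Slc17a6 they were Atp13a4 (r = 0.983), a P-type ATPase gene, and Scrn1 (r = 0.980). Scrn1, the secernin gene, averaged 202 ± 2.50 CPM in MiaTAM, 220.04 ± 3.35 CPM in BxTAM and 120.2 ± 3.59 CPM in MDM co-culture, against 208 ± 1.88 CPM in cells alone. For Uchl1 they were Coro1a (r = 0.984), an actin-binding coronin of leukocytes, and Tgfb1 (r = 0.977), which encodes the growth factor TGF-beta 1. Coro1a averaged 13.9 ± 0.295 CPM in MiaTAM, 8.58 ± 0.692 CPM in BxTAM and 9.86 ± 0.668 CPM in MDM co-culture, against 6.99 ± 0.756 CPM in cells alone. For Olfm1, Gapdh-ps2 had r = 0.961, and it belongs to a family that shares reads with near-identical copies. The 12 points fall into 4 groups, so these values describe how group levels line up.

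Relatives of the members were read next, from lists chosen with earlier results of these data known. They were tested with edgeR's quasi-likelihood test across all genes, with Benjamini-Hochberg adjustment and a threshold of 0.05. Olfm2, the closest relative of Olfm1, rose in all 3 co-cultures. It averaged 6.57 ± 0.252 CPM in MiaTAM, 4.33 ± 0.340 CPM in BxTAM and 6.16 ± 0.167 CPM in MDM co-culture, against 0.946 ± 0.0859 CPM in cells alone. Its log2 changes against cells alone were 2.79 ± 0.15, 2.19 ± 0.16 and 2.69 ± 0.15 for MiaTAM, BxTAM and MDM (edgeR, adjusted p = 2.2e-12, 3.9e-10 and 4.1e-12). Unlike Olfm1, it did not differ detectably between MiaTAM and MDM co-culture (0.09 ± 0.11; edgeR, adjusted p = 0.515), and it was lower in BxTAM than in MDM co-culture (-0.51 ± 0.11; adjusted p = 0.00165). Olfm3 had no count in any library. Per length, Olfm2 stood at 1.20 ± 0.0417 FPKM and Olfm1 at 0.578 ± 0.238 FPKM in MDM co-culture.

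Uchl3 and Uchl5, the related ubiquitin hydrolases, fell where Uchl1 stood higher. Uchl3 averaged 14.8 ± 1.49 CPM in MiaTAM, 14.8 ± 0.610 CPM in BxTAM and 13.8 ± 1.27 CPM in MDM co-culture, against 21.1 ± 0.960 CPM in cells alone (edgeR, adjusted p = 2.3e-05, 2.3e-05 and 1.9e-06). Uchl5, a hydrolase of the proteasome cap, averaged 33.0 ± 4.84 CPM in MiaTAM, 40.2 ± 0.868 CPM in BxTAM and 38.8 ± 4.83 CPM in MDM co-culture, against 49.7 ± 2.68 CPM in cells alone (edgeR, adjusted p = 9.0e-06, 0.00533 and 0.00129). Per length the 3 hydrolases kept 1 order in all groups. In cells alone Uchl1 stood at 78.2 ± 3.69 FPKM, Uchl3 at 30.6 ± 1.49 FPKM and Uchl5 at 20.4 ± 1.05 FPKM.

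The receptors that pentraxins gather were largely undetected. Gria1, Gria2 and Gria4, which encode AMPA receptor subunits, had no count in any library. Gria3, the remaining subunit, averaged 9.85 ± 1.12 CPM in MiaTAM, 12.4 ± 1.78 CPM in BxTAM and 10.9 ± 0.175 CPM in MDM co-culture, against 7.69 ± 0.686 CPM in cells alone, and rose in all 3 (log2 changes of 0.36 ± 0.12, 0.69 ± 0.11 and 0.50 ± 0.11; edgeR, adjusted p = 0.00920, 1.8e-05 and 6.2e-04). Adam17, a sheddase known to cleave Nptxr in neurons, fell in MDM co-culture by 0.48 ± 0.05 and in MiaTAM and BxTAM co-culture by 0.33 ± 0.05 and 0.18 ± 0.05. Cacng7 and Cnih2, auxiliary proteins of AMPA receptors, rose in each co-culture. Cacng7 averaged 8.07 ± 1.54 CPM in MiaTAM, 7.11 ± 0.503 CPM in BxTAM and 6.59 ± 0.909 CPM in MDM co-culture, against 3.27 ± 0.407 CPM in cells alone. Rest, the repressor of neuronal genes in other cells, was at 41.8 ± 1.24 CPM in MiaTAM, 41.8 ± 2.77 CPM in BxTAM and 43.4 ± 2.41 CPM in MDM co-culture, against 45.0 ± 2.16 CPM in cells alone. It passed the test in no comparison, and its largest change was -0.10 ± 0.06 for MiaTAM against cells alone (edgeR, adjusted p = 0.145).

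**Figure D3:**
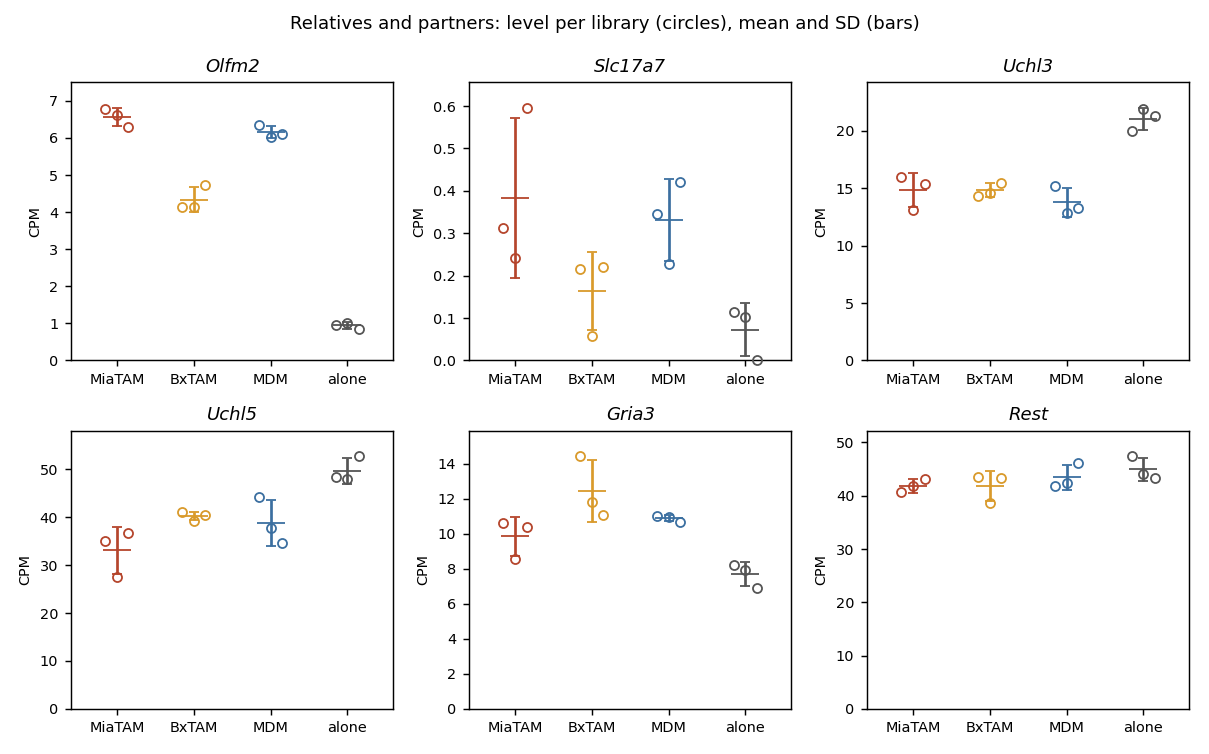
Level in CPM (vertical axes, linear from 0) of relatives and partners of the members in MiaTAM, BxTAM and MDM co-culture and in Schwann cells alone. Circles are the 3 libraries of a group and bars their mean and SD. Olfm2 is higher and Uchl3 and Uchl5 are lower in the 3 co-cultures than in cells alone, while Rest lies between 38.7 and 47.5 CPM in all 12 libraries.

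Other presynaptic genes were mostly higher in co-culture than in cells alone. Of 22 tested genes of vesicle release, 19 rose and 1 fell in MiaTAM co-culture, where 31.4% of all tested genes rose and 33.7% fell. In BxTAM co-culture 15 rose and 1 fell, against 30.0% and 30.9% of all genes. In MDM co-culture 15 rose and 2 fell, against 32.0% and 33.1%. The median log2 change of the list was 0.62 in MiaTAM, 0.55 in BxTAM and 0.52 in MDM co-culture, whereas the median of all tested genes was within 0.01 of 0 in each. On log2(FPKM + 1), where the added 1 understates low genes, these medians were 0.24, 0.28 and 0.29. The 3 comparisons share the same cells alone. Dnm1, the dynamin of vesicle retrieval, rose by 1.84 ± 0.08, 1.65 ± 0.08 and 1.57 ± 0.08 in MiaTAM, BxTAM and MDM co-culture. Unc13a, a vesicle priming factor, rose by 0.95 ± 0.06, 1.11 ± 0.06 and 1.05 ± 0.06, and Rab3a, a vesicle GTPase, by 1.16 ± 0.07, 0.92 ± 0.07 and 1.01 ± 0.07. Syt7, a calcium sensor of membrane fusion, averaged 32.1 CPM in MDM co-culture and 11.7 CPM in cells alone.

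Of 19 tested postsynaptic scaffold and adhesion genes, 10 rose, 1 fell and 8 did not pass in MiaTAM co-culture against cells alone, beside 31.4% higher and 33.7% lower among all tested genes. The counts were the same in BxTAM co-culture, beside 30.0% and 30.9%. In MDM co-culture 11 rose, 3 fell and 5 did not pass, beside 32.0% and 33.1%. Medians were 0.50, 0.35 and 0.42 in MiaTAM, BxTAM and MDM co-culture, and 0.25, 0.13 and 0.21 on log2(FPKM + 1). Dlg4, which encodes the scaffold PSD-95, averaged 162 CPM in MiaTAM, 169 CPM in BxTAM and 168 CPM in MDM co-culture, against 90.9 CPM in cells alone. Nlgn2, an adhesion protein of inhibitory synapses, rose by 0.73 ± 0.05, 0.70 ± 0.05 and 0.72 ± 0.05 in MiaTAM, BxTAM and MDM co-culture. Cadm1, an immunoglobulin adhesion protein, fell by 0.54 ± 0.04, 0.31 ± 0.04 and 0.41 ± 0.04.

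Of 12 tested genes of glutamate transport and metabolism, 5 rose and 3 fell in MiaTAM, 5 rose and 2 fell in BxTAM, and 3 rose and 4 fell in MDM co-culture against cells alone. In MiaTAM co-culture these are 41.7% and 25% of the list, beside 31.4% and 33.7% of all tested genes. In BxTAM co-culture they are 41.7% and 16.7%, beside 30.0% and 30.9%. In MDM co-culture they are 25% and 33.3%, near the 32.0% and 33.1% of all tested genes. Slc1a1, a glutamate uptake carrier of the plasma membrane, averaged 83.0 CPM in MiaTAM, 86.0 CPM in BxTAM and 60.7 CPM in MDM co-culture, against 107 CPM in cells alone, so it was lowest where Slc17a6 was. Slc17a5, the lysosomal sialic acid exporter of the VGLUT family, averaged 16.7 CPM in MiaTAM, 19.9 CPM in BxTAM and 24.2 CPM in MDM co-culture, against 13.0 CPM in cells alone. Of 11 tested genes of ubiquitin hydrolysis and supply, 3 rose and 7 fell in MiaTAM, 2 rose and 6 fell in BxTAM, and 2 rose and 6 fell in MDM co-culture, which are 63.6%, 54.5% and 54.5% of the list lower, beside 33.7%, 30.9% and 33.1% of all tested genes. The median log2 change was 0.09, 0.02 and -0.01 for the glutamate list and -0.16, -0.14 and -0.22 for the ubiquitin list in MiaTAM, BxTAM and MDM co-culture. Among olfactomedin genes and Olfm1 partners, Olfml2a rose by 0.99 ± 0.05, 0.86 ± 0.05 and 0.66 ± 0.05 in MiaTAM, BxTAM and MDM co-culture.

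**Figure D4:**
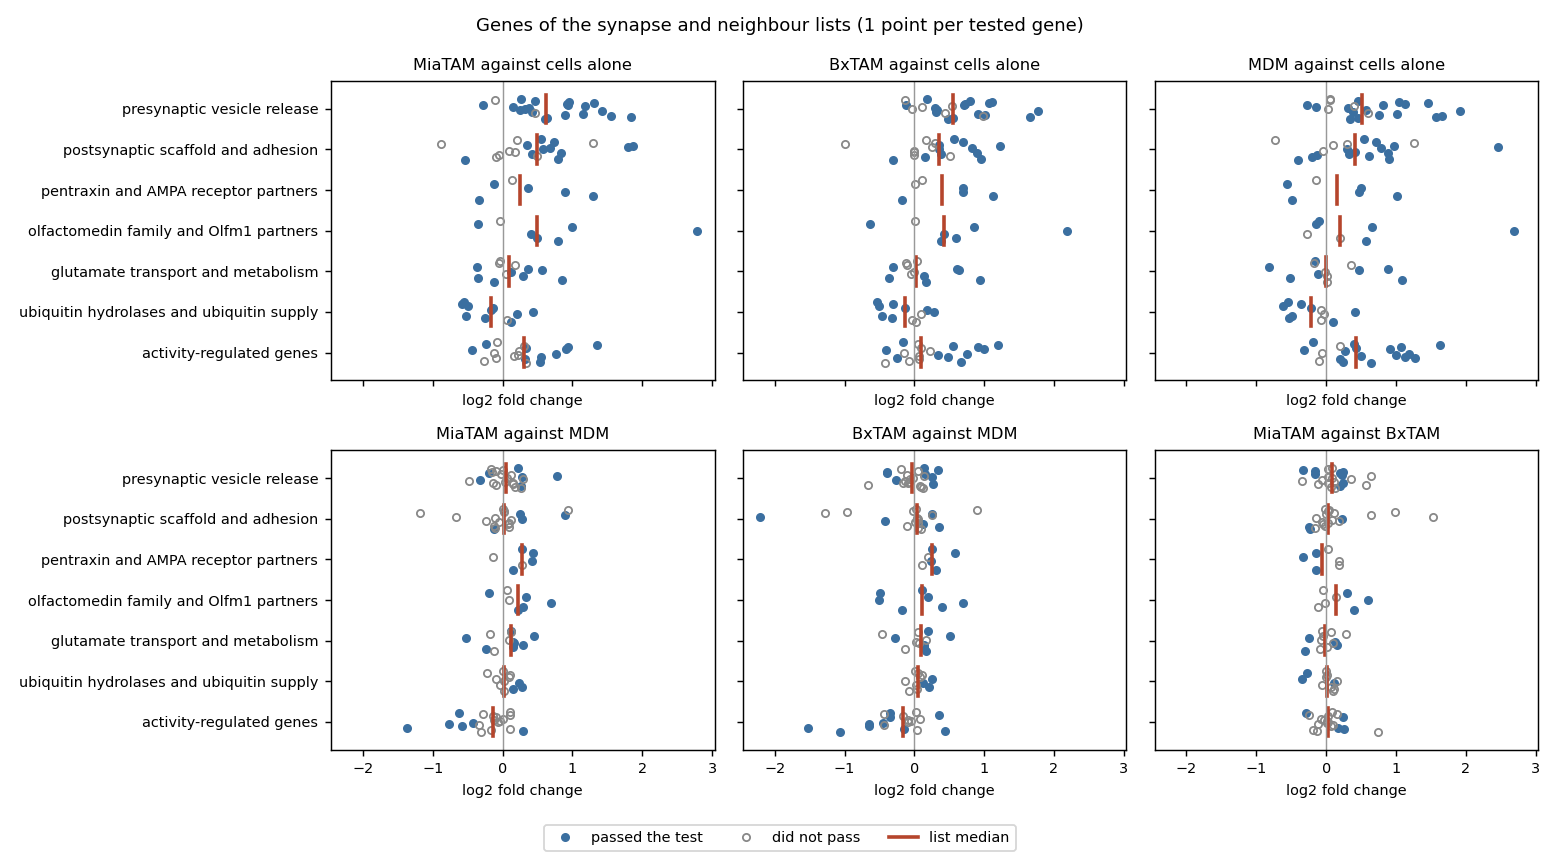
Log2 fold change (horizontal axes) of every tested gene in 7 lists of synaptic and neighbouring genes, in the 6 comparisons. Filled points passed edgeR's test, open points did not, and the red bar is the median of the list. Presynaptic and postsynaptic genes lie mostly right of 0 in the upper row, where co-cultures are set against cells alone, and around 0 in the lower row, where co-cultures are set against each other.

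Over all 7 lists together, 70 of the 96 tested genes passed the test in MiaTAM, 63 in BxTAM and 72 in MDM co-culture against cells alone, beside 65.1%, 60.9% and 65.1% of all tested genes. Between co-cultures 36 passed in MiaTAM against MDM, 43 in BxTAM against MDM and 28 in MiaTAM against BxTAM, beside 41.0%, 34.7% and 24.2%. By direction, 26 rose and 17 fell in BxTAM against MDM co-culture, where 17.4% and 17.3% of all tested genes did. In MiaTAM against MDM co-culture 25 rose and 11 fell, against 19.8% and 21.1%. The median log2 change over the 96 genes was 0.03 in MiaTAM and 0.04 in BxTAM against MDM co-culture. Single lists could lie further from 0: the 6 tested pentraxin and AMPA receptor partners had medians of 0.28 in MiaTAM and 0.25 in BxTAM against MDM co-culture, and the olfactomedin list 0.23 and 0.11. Of the 6 partners, 4 rose in each of those comparisons, and 2 rose in BxTAM co-culture without MDM library 3 or BxTAM library 3. In MiaTAM against BxTAM co-culture 15 rose and 13 fell, against 11.0% and 13.3%. That total of 28 dropped to 18 without BxTAM library 2 or 3, to 16 without MiaTAM library 2 and to 17 without MiaTAM library 3.

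Activity-regulated genes, a class to which Nptx2 belongs in neurons, were higher in MDM co-culture than in cells alone for most of the genes tested. Of 19 tested, 14 rose and 2 fell there, which are 73.7% and 10.5% of the list beside 32.0% and 33.1% of all tested genes. The median was 0.43, and 0.20 on log2(FPKM + 1). Against cells alone 8 rose and 2 fell in MiaTAM and 8 rose and 3 fell in BxTAM co-culture, so 42.1% of the list was higher in each, beside 31.4% and 30.0% of all genes. In BxTAM against MDM co-culture 2 rose and 8 fell, and in MiaTAM against MDM co-culture 1 rose and 5 fell. The lower ones are 42.1% of the list in BxTAM and 26.3% in MiaTAM, beside 17.3% and 21.1% of all genes. Egr1, an immediate early transcription factor, averaged 101 CPM in MiaTAM, 90.2 CPM in BxTAM and 260.0 CPM in MDM co-culture, against 107.5 CPM in cells alone. Plk2, a kinase of synapse remodelling, averaged 130.2 CPM in MiaTAM, 159 CPM in BxTAM and 202 CPM in MDM co-culture, against 154 CPM in cells alone. Bdnf, the brain-derived neurotrophic factor, followed another order, with 37.9 CPM in MiaTAM, 41.7 CPM in BxTAM and 30.8 CPM in MDM co-culture, against 26.2 CPM in cells alone. Genes of this kind also respond to cell handling, and the part of handling was not tested.

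Neuron markers that were detected did not move as one. Mapt, which encodes the microtubule protein tau, rose by 2.24 ± 0.11, 1.99 ± 0.11 and 2.17 ± 0.11 in MiaTAM, BxTAM and MDM co-culture against cells alone. Eno2, the neuronal enolase, averaged 362 CPM in MiaTAM, 370 CPM in BxTAM and 490.5 CPM in MDM co-culture, against 197 CPM in cells alone. Elavl2, a neuronal RNA-binding protein, fell in MDM co-culture by 0.49 ± 0.12. Nefh, the heavy neurofilament subunit, was at 52.1 CPM in MDM co-culture and 49.3 CPM in cells alone and did not pass there (edgeR, adjusted p = 0.167).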

How the data were processed

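The members and gene lists were chosen with earlier results of these data known. Raw counts per gene and FPKM values, scaled by gene length and library total, are as deposited by the authors. The tools CASAVA, HISAT2 and StringTie 1.3.0, and build Rnor_6.0, are listed per the submitters' processing notes. For the counting of reads, the tool, annotation and strand setting were not given in the sources used here. Columns were matched to samples by the short descriptions in the labels.

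Counts of all 12 libraries entered 1 quasi-likelihood fit in edgeR 4.0.16 (R 4.3.3) with 1 mean per group, after filterByExpr by group (12360 genes) and TMM scaling (factors 0.98 to 1.01). The standard error is the log2 change over the square root of F. Values at 0 were read against a floor of 3 counts. The fit was tested on simulated data. Replicates were compared, and all pairs differed beyond sampling noise. Replicate numbers were not used as pairs.

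Of 209 list entries, 201 were matched by symbol, 6 were not found and 2 stood on several genes. The text names all members, fixed relatives, up to 4 called genes per list and comparison with the smallest p and at least 1 CPM, and the 2 genes most alike to each member; items withheld for evaluation are not reported here. Genes within 50000 bases of Nptxr, and further markers, were named in addition. Promoter sequences are RefSeq's, build GRCr8, matched by symbol for 4 of 6 members. Alternatives were DESeq2 1.42.0, its size factors, upper-quartile factors, no filter, limma 3.58.1 on log2(FPKM + 1), 2-group fits, a replicate block and leaving out each library.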

Additional observations from a re-analysis of the deposited data

How the results depend on the processing

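With DESeq2's size factors, DESeq2's Wald test, no low-count filter, or the replicate number as a block, all log2 changes of the members moved by less than the spread between replicates, and all counts of changed genes stayed within 1.5 times. With the replicate block, 8046 genes changed in MDM co-culture against cells alone, and 8047 without it. Of 18 pairs of same-numbered libraries, none deviated together with r over 0.1 (-0.13 to 0.09). These values are over all tested genes, so a pairing that moves few genes would not show in them. Upper-quartile factors, which shifted the median gene by at most 0.07 on the log2 scale, put Nptxr against cells alone at 1.22 (MiaTAM), 0.95 (BxTAM) and 2.74 (MDM) and Uchl1 in MiaTAM at 0.86. On log2(FPKM + 1), where the added 1 understates low genes, Nptxr in MDM co-culture against cells alone was at 2.60. There Olfm1 was at 0.19 (MiaTAM), 0.13 (BxTAM) and 0.61 (MDM) against cells alone, and at -0.41 (MiaTAM) and -0.48 (BxTAM) against MDM co-culture. Slc17a6 was at 0.067 (BxTAM) and -0.46 (MDM) against cells alone, and at 0.47 (MiaTAM) and 0.52 (BxTAM) against MDM co-culture. Leaving out 1 library gave 2.04 to 3.22 (MiaTAM), 1.53 to 2.71 (BxTAM) and 3.73 to 4.91 (MDM) for Olfm1 against cells alone. It gave 1933 to 3113 changed genes between MiaTAM and BxTAM co-culture, of 2997 with all libraries, and 16 to 31 of the synaptic lists, of 28. Fits of only 2 groups gave no value for Olfm1 in MiaTAM or BxTAM against cells alone or against each other, since its counts there fell under the filter. Depth limits Nptx1, Nptx2, Olfm1, Slc17a6 and Slc17a7, and not Nptxr or Uchl1.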
